A study of Mus musculus with 18 samples.

Results

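The Hox cluster genes on this array platform described here were 51 of 46643 probes, for 38 genes. They were chosen as probes whose gene name was Hox, a cluster letter (A, B, C or D) and a number. No measured value entered that rule, but the gene family was chosen with earlier results of these data known. E14, a widely used mouse embryonic stem cell line, gave the RNA, which was read on Illumina MouseWG-6 V1.1 BeadChips with 1 array per sample. The study compared cells with reduced Esrrb with control cells at 3 time points. All cells were transfected with a pSUPER.puro plasmid by lipofection and grew on gelatin with serum and LIF, which holds such cells in the undifferentiated state. Knockdown cells received the plasmid with a hairpin against Esrrb, a nuclear receptor without a known natural ligand that helps to maintain pluripotency. Control cells received the plasmid with a hairpin against GFP, a jellyfish protein that the labels do not place in these cells. RNA was taken at days 2, 4 and 6, which gave 6 groups of 3 arrays.

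Hox genes encode homeodomain transcription factors that lie in clusters. Along each cluster, genes at the 3' end (low paralogue numbers) are switched on first and furthest forward in the embryo, and genes at the 5' end (high numbers) later and further back. In embryonic stem cells the clusters are a textbook target of Polycomb repressors. They are opened in order by retinoic acid and by the Wnt, Fgf and Cdx signals of the posterior embryo. Below, paralogues 1 to 3 are called anterior, 4 to 8 central and 9 to 13 posterior.

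Promoter letters were set beside the array data for 2 of these genes. RefSeq promoter windows (assembly GRCm38.p6, 250 bases before to 50 after the gene start) were at hand for 22 of the 38 genes. Hoxb1, the paralogue that specifies a hindbrain segment, is shown for the motif that Hox proteins read together with their partner Pbx, TGATNNAT, and because it is a member detected in every group. Its window is chr11:96365508-96365807 on the plus strand. Hoxd8, a central gene of cluster D, is shown as the single Hox window with the core of the site read by Esrrb, AAGGTCA. Its window is chr2:74704365-74704664 on the plus strand. Capitals mark the motif match.
Hoxb1: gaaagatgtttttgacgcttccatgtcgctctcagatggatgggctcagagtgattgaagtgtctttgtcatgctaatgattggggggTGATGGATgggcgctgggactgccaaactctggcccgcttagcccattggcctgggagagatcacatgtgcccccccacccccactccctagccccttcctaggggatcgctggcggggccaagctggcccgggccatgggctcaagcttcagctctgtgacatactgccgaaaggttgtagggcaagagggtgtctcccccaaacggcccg
Hoxd8: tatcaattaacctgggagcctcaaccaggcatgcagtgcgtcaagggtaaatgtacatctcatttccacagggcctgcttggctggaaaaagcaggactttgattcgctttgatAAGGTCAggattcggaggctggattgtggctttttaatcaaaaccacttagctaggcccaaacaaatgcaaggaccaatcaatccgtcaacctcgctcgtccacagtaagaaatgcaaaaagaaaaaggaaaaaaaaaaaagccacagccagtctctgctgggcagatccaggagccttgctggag
Both strands were searched. TGATNNAT was found in the windows of 4 of the 22 Hox genes (Hoxa2, Hoxb1, Hoxb8 and Hoxd11) and in 8.85% of all 32851 RefSeq windows. AAGGTCA was found in 1 of the 22 and in 4.72% of all windows. The marked matches of the 2 motifs lie in different windows. A match is a description of the letters and not a measured binding site.

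Levels below are log2 intensities after background correction and quantile normalization, and differences are log2 differences of these. Esrrb itself checked the labels. Its level lay between 13.37 and 14.04 on the 9 control arrays and between 10.95 and 12.34 on the 9 knockdown arrays. Its difference from control was -2.23 at day 2, -2.72 at day 4 and -1.87 at day 6 (SE 0.11 each). A second, dim Esrrb probe gave -0.14, 0.03 and -0.02. On the 18 arrays 37.7% to 42.6% of probes were detected, and the median raw intensity ran from 60.4 to 76.9. The array number of a group is its BeadChip, and each of 3 BeadChips held all 6 groups. A group always sat at the same place on the chip, so chip position and group cannot be separated. Every knockdown array carries the same shRNA label, so off-target effects of the hairpin and the loss of Esrrb cannot be told apart. As a check of the cell label, 7 of 8 embryonic stem cell markers were found on the array and all 7 passed the detection filter. The 8th, Dppa5a, was not matched. Pou5f1, Sox2, Nanog and Zfp42 were each detected on all 18 arrays.

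Most Hox probes were dark. A probe counted as detected in a group when its detection score was over 0.95 on all 3 arrays. By that rule 15 of the 51 probes (29.4%) were detected in at least 1 group, against 42% of all probes on the platform. They belong to 12 genes: Hoxa7, Hoxb1, Hoxb2, Hoxb4, Hoxb7, Hoxb13, Hoxc4, Hoxc6, Hoxc8, Hoxc9, Hoxc13 and Hoxd9. In all 6 groups 7 probes were detected (13.7%, against 31.2% of all probes). On no array at all 26 probes were detected (51%, against 47.7% of all probes), and the other 10 passed on scattered arrays without filling a group (19.6%, against 10.2%). Detected Hox probes numbered 10 in control and 8 in knockdown cells at day 2, 9 and 8 at day 4, and 10 and 12 at day 6.

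**Figure D1:**
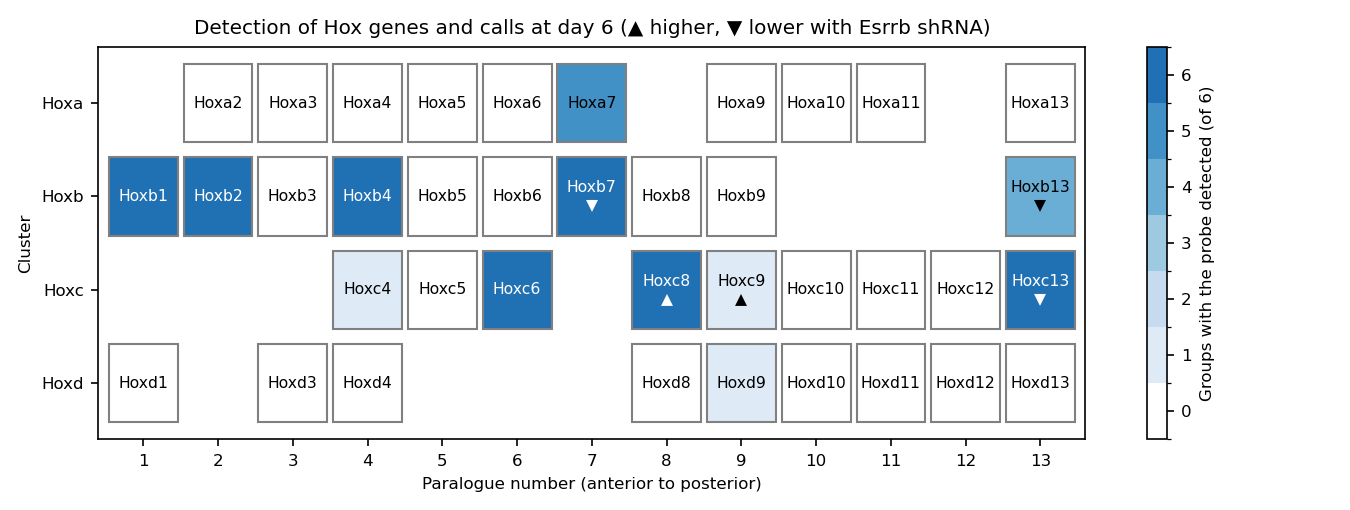
Hox genes by cluster (rows) and paralogue number (columns); colour is the number of the 6 groups in which the best probe of the gene was detected, and triangles mark a gene with a probe called higher or lower in knockdown cells at day 6. Cluster C has 5 detected genes and cluster D 1; the dark square of Hoxc8 comes from one of its probes and the triangle from the other.

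The clusters differed in how many members could be seen. Cluster B had 5 of its 10 genes detected and cluster C had 5 of 9. Cluster A had 1 of 10 (Hoxa7) and cluster D had 1 of 9 (Hoxd9). By position, 2 of 7 anterior, 6 of 15 central and 4 of 16 posterior genes were detected. Detected genes were not a run from the 3' end: within cluster B, Hoxb1, Hoxb2, Hoxb4, Hoxb7 and Hoxb13 were detected, with undetected genes between them. These shares were not tested. They also depend on the number of probes, which was 16 for cluster A, 13 for B, 12 for C and 10 for D, and on the affinity of each probe.

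The detected members were dim. By their means over all arrays, the 15 detected Hox probes lay between percentiles 0.231 and 40.2 of the 19464 probes that were tested. The median of the tested probes was 6.81, and the lowest level at which an array still detected a probe was 4.92 to 5.12. The order of levels holds within a probe only, since probes differ in brightness for the same amount of RNA.

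Knockdown and control cells differed in 5 Hox probes at day 6, 2 higher and 3 lower. Probes of Hoxc8 and Hoxc9, neighbouring genes of the trunk, rose. Hoxb7, a trunk gene, Hoxb13, the gene at the 5' end of cluster B and a regulator of the tail and prostate, and Hoxc13, the gene at the 5' end of cluster C that regulates hair keratins, fell. The 5 were 33.3% of the 15 tested Hox probes, and 38.9% of all tested probes were called at day 6, 19.2% higher and 19.7% lower (limma, Benjamini-Hochberg adjusted p under 0.05). The share of Hox probes called was thus near the background. The 2 higher probes passed the detection filter through knockdown cells at day 6 alone. The 3 arrays of each shRNA did not overlap for 7 of the 15, against 51.5% of all tested probes. In RNA from a whole culture, a change in the share of cells that express a gene and a change in RNA per cell cannot be told apart.

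**Figure D2:**
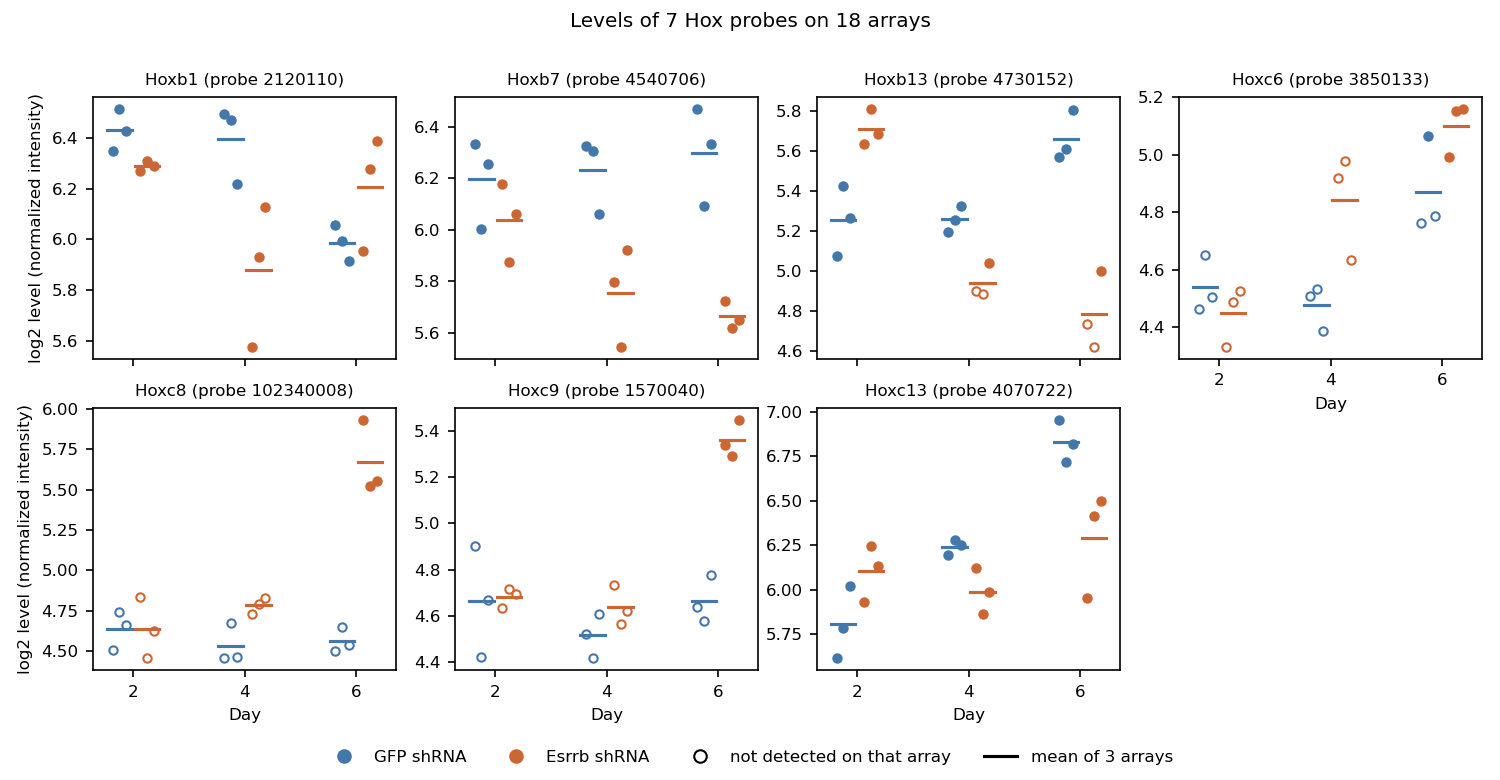
Log2 level of the 7 Hox probes called at day 4 or day 6 on each of the 18 arrays, by day, with control and knockdown arrays side by side; points are arrays, open where the probe was not detected, and short bars are means of 3 arrays. Hoxc8 and Hoxc9 stand apart in knockdown arrays at day 6, while Hoxb13 is higher in knockdown arrays at day 2 and lower at days 4 and 6.

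One of the 2 Hoxc8 probes, and the Hoxc9 probe, were detected in knockdown cells at day 6 and in no other group. Both passed the detection filter only through the group in which they are high. Their p-values below are therefore not independent of that selection. The Hoxc8 probe 102340008 was at 5.93, 5.52 and 5.55 in knockdown cells at day 6 and at 4.50, 4.65 and 4.54 in control cells. On the 15 arrays of the other 5 groups it stayed between 4.46 and 4.83 and was detected on none. The raw intensities at day 6 were 57.1, 71.1 and 67.5 in control cells and 99.7, 91.5 and 107.1 in knockdown cells. The day 6 groups stood apart without overlap. Since the control group was not well above background on any array, the control entered at its own level or, where higher, at the lowest detected level of that array. Hoxc8 was then at least 1.58-fold higher (fitted difference 1.11, SE 0.12, adjusted p = 3.04e-07, limma). The other Hoxc8 probe, 6220050, was detected in all 6 groups and did not follow. It was at 6.01, 5.90 and 5.98 in control cells and 5.90, 6.04 and 5.67 in knockdown cells at day 6, with overlap (difference -0.09, 95% interval -0.35 to 0.17, adjusted p = 0.6, limma). The 2 probes of this gene therefore disagree, and the probe sequences were not analysed here.

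Hoxc9 was at 4.64, 4.58 and 4.78 in control cells and at 5.34, 5.29 and 5.45 in knockdown cells at day 6. Raw intensities there were 62.3, 68.5 and 76.9 against 79.0, 83.6 and 101.9. The normalized levels did not overlap, and the probe was detected on all 3 knockdown arrays and on none of the other 15. It was at least 1.28-fold higher in knockdown cells (fitted difference 0.69, SE 0.11, adjusted p = 3.57e-05, limma). On the separate BeadChips the Hoxc9 difference ran from 0.67 to 0.72 and that of Hoxc8 from 0.87 to 1.43. From day 2 to day 6 in knockdown cells, Hoxc8 rose at least 1.54-fold and Hoxc9 at least 1.24-fold (limma adjusted p = 1.04e-06 and 5.72e-05).

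Hoxb13 changed direction over the days. At day 2 control levels were 5.07, 5.43 and 5.26 and knockdown levels 5.64, 5.81 and 5.68. At day 4 they were 5.19, 5.26 and 5.33 against 4.90, 4.89 and 5.04, and at day 6 they were 5.57, 5.61 and 5.80 against 4.74, 4.62 and 5.00. Knockdown arrays were thus all higher at day 2 and all lower at days 4 and 6. The differences were 0.45 (SE 0.11, adjusted p = 0.0111), -0.32 (adjusted p = 0.0498) and -0.87 (SE 0.11, adjusted p = 3.37e-06) in limma. At day 6 the level in control cells was 1.83-fold that in knockdown cells. The probe was detected on 1 of 3 knockdown arrays at day 4 and on 1 of 3 at day 6. The call at day 2 was lost without control array 1 (0.37, adjusted p = 0.0608) or knockdown array 2 of that day (0.41, adjusted p = 0.053). That at day 4 was lost under 18 of 25 alternatives (highest adjusted p 0.166), and of the single arrays only leaving out control array 1 or 2 of day 2 or knockdown array 2 or 3 of day 6 kept it (-0.29 to -0.37 without any other). The call at day 6 was kept under every alternative that tested the probe. From day 2 to day 6 Hoxb13 rose by 0.41 in control cells (adjusted p = 0.00546) and fell by 0.92 in knockdown cells (adjusted p = 2.18e-06, limma). A second Hoxb13 probe was detected in no group.

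Hoxb7 was lower in knockdown cells at days 4 and 6. At day 6 control levels were 6.47, 6.09 and 6.33 and knockdown levels 5.72, 5.62 and 5.65. Those groups did not overlap, and the difference was -0.63 (SE 0.13, adjusted p = 0.000434, limma), with control 1.55-fold higher. At day 4 control levels were 6.33, 6.30 and 6.06 against 5.80, 5.55 and 5.92 (difference -0.48, adjusted p = 0.0091), again without overlap. That call was lost with median centring in place of quantile normalization (-0.35, adjusted p = 0.0695) and without knockdown array 2 of day 4 (-0.37, adjusted p = 0.0682). At day 2 the levels 6.33, 6.00 and 6.26 in control and 6.18, 5.88 and 6.06 in knockdown cells overlapped. The second Hoxb7 probe was not detected in any group.

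Hoxc13 rose with time in control cells. Control levels were 5.61, 5.78 and 6.02 at day 2, 6.20, 6.28 and 6.25 at day 4, and 6.95, 6.72 and 6.82 at day 6. Knockdown levels were 5.93, 6.24 and 6.13 at day 2, 6.12, 5.86 and 5.99 at day 4, and 5.96, 6.41 and 6.50 at day 6. At days 4 and 6 all control arrays lay above all knockdown arrays, whereas at day 2 the groups overlapped. The difference at day 6 was -0.54 (SE 0.13, adjusted p = 0.00302, limma), with control 1.45-fold higher. The control time course gave a rise of 1.02 from day 2 to day 6 (SE 0.13, adjusted p = 3.12e-06), and the knockdown one gave 0.19 (adjusted p = 0.31, limma).

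Hoxb1 was lower in knockdown cells at day 4. Control levels were 6.49, 6.47 and 6.22 and knockdown levels 5.58, 5.93 and 6.13, without overlap. The difference was -0.52 (SE 0.13, adjusted p = 0.00635, limma). It was no longer called with median centring (-0.38, adjusted p = 0.0876) or without knockdown array 1 of that day (-0.36, adjusted p = 0.0556). At day 2 the levels were 6.35, 6.51 and 6.43 in control and 6.27, 6.31 and 6.29 in knockdown cells, again without overlap but not called. At day 6 they were 6.06, 5.99 and 5.91 against 5.95, 6.28 and 6.39. The day 6 groups overlapped (0.22, 95% interval -0.05 to 0.49, adjusted p = 0.198). In control cells Hoxb1 fell by 0.44 from day 2 to day 6 (adjusted p = 0.00783, limma), a call lost with median centring (-0.27, adjusted p = 0.166).

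At day 4 the other call was on Hoxc6, a thoracic gene, through probe 3850133. Its control levels were 4.51, 4.53 and 4.39 and its knockdown levels 4.92, 4.98 and 4.63. These did not overlap (adjusted p = 0.0207, limma), but the probe was not well above background on any array of either group, so no fold is given. The call was lost with a larger offset (adjusted p = 0.105), without control array 3 (adjusted p = 0.0881), and without knockdown array 1 (adjusted p = 0.0805) or 2 (adjusted p = 0.109) of that day. At day 6 this probe was at 4.76, 5.06 and 4.79 in control and 4.99, 5.15 and 5.16 in knockdown cells, the 1 group that detected it on all 3 arrays. The groups overlapped and the difference was not called (0.23, adjusted p = 0.109), although it was without control array 2 (0.33, adjusted p = 0.0394). The second Hoxc6 probe, 4920736, was detected in all groups, at 5.51 to 6.27, and was called in no comparison. The 4 called Hox probes at day 4 (1 higher, 3 lower) were 26.7% of those tested, against 21.6% of all tested probes (11.4% higher and 10.2% lower).

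At day 2 the calls were Hoxb13 (above) and Hoxa7, a trunk gene, through probe 101230082. Hoxa7 was at 5.62, 5.37 and 5.55 in control cells and at 5.34, 4.83 and 4.89 in knockdown cells. The groups did not overlap (-0.49, SE 0.15, adjusted p = 0.0455, limma), but the call was lost under 15 of 25 alternatives (highest adjusted p 0.171). Of the day 2 arrays, it was lost without control array 1 (-0.44) or 3 (-0.48) and without knockdown array 2 (-0.40) or 3 (-0.43). It was also lost, with a difference of -0.49 to -0.50, without any 1 of 6 arrays of the other days: control array 1 and knockdown array 2 of day 4, control array 2 of day 6, and each knockdown array of day 6. At day 6 it was at 5.62, 5.47 and 5.07 against 5.74, 5.61 and 5.49, with overlap. The second Hoxa7 probe, 5910152, was at 5.11, 5.23 and 5.36 in control and 4.86, 5.40 and 4.95 in knockdown cells at day 2, with overlap and no call. The 2 called Hox probes at day 2 were 13.3% of those tested, against 10.7% of all tested probes (5.77% higher and 4.93% lower).

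The remaining detected members showed no knockdown difference that passed the test on any day. Hoxb2, a hindbrain gene, was at 5.58, 5.69 and 5.60 in control and 5.84, 5.94 and 5.75 in knockdown cells at day 6, without overlap (0.22, 95% interval -0.08 to 0.52, adjusted p = 0.256, limma). At day 4 Hoxb2 lay the other way, also without overlap (-0.26, adjusted p = 0.22, limma). Hoxb4, known for its role in blood stem cells, ranged from 5.70 to 6.25 over all 18 arrays and differed by -0.15 at day 6 (95% interval -0.40 to 0.09). Hoxc4 was detected in control cells at day 6 alone, at 5.25, 5.16 and 5.31 against 4.92, 4.86 and 5.06, without overlap. Its difference of -0.30 missed the threshold (95% interval -0.65 to 0.06, adjusted p = 0.186, limma), although it passed in a fit of the 6 day 6 arrays alone (adjusted p = 0.03). Hoxd9, the single detected gene of cluster D, was detected on all 3 arrays in knockdown cells at day 6 (5.37, 4.99 and 5.50) and on 2 of 3 control arrays (5.07, 5.27 and 4.96). Those groups overlapped, with a difference of 0.19 (95% interval -0.19 to 0.56).

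From day 2 to day 6 in control cells, 4 of the 15 tested Hox probes were called, 3 higher and 1 lower. This is 26.7%, against 47.6% of all tested probes (24.3% higher and 23.3% lower). The time courses and the knockdown differences share arrays, so they are not separate evidence. Beside Hoxc13, Hoxb13 and Hoxb1 above, Hoxc6 (3850133) rose by 0.33 (adjusted p = 0.0176, limma), from a group in which it was undetected to one that detected it on 1 array. That call was lost with a larger offset (adjusted p = 0.0857), without control array 1 of day 2 (0.30, adjusted p = 0.0581) and without control array 2 of day 6 (0.24, adjusted p = 0.118). Hoxb2 was higher at day 4 than at both other times in control cells, at 6.12, 6.04 and 6.04 against 5.67, 5.78 and 5.50 at day 2. It rose by 0.42 from day 2 to day 4 (adjusted p = 0.0459) and fell by 0.44 from day 4 to day 6 (adjusted p = 0.0238, limma). From day 4 to day 6 Hoxb1 was also called lower, and Hoxb13, Hoxc6 (3850133) and Hoxc13 higher. Hoxc13 was also called higher from day 2 to day 4. For these shorter steps the share of all probes called, and the outcome under the alternatives, are not given here.

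In knockdown cells 7 of 15 were called between day 2 and day 6, 5 higher and 2 lower, which is 46.7% against 35.3% of all tested probes (18.1% higher and 17.2% lower). Beside Hoxc8, Hoxc9 and Hoxb13 these were Hoxa7 (101230082), Hoxc6 (3850133), Hoxd9 and Hoxb7. The probes of Hoxc8 (102340008), Hoxc9, Hoxc6 (3850133) and Hoxd9 passed the detection filter through knockdown cells at day 6 alone. Their rises end in the group that admitted them, so the share called cannot be read as an excess. Of the 7 Hox probes detected on every array 1 was called, against 40.8% of all probes detected on every array. Hoxa7 rose by 0.59 (SE 0.15, adjusted p = 0.00518, limma) from day 2, when it was detected on 1 of 3 arrays. Hoxc6 rose at least 1.04-fold (adjusted p = 0.000103) and Hoxd9 at least 1.18-fold (adjusted p = 0.0145) from groups in which they were undetected. The Hoxd9 levels at day 2 had been 4.82, 4.87 and 4.39, below all 3 day 6 arrays. Hoxb7 fell by 0.37 (adjusted p = 0.025). The call on Hoxd9 was lost without knockdown array 3 of day 2 (adjusted p = 0.0885) and without array 1 (adjusted p = 0.0557) or 3 (adjusted p = 0.0761) of day 6. The call on Hoxb7 was lost without knockdown array 1 (adjusted p = 0.109) or 3 (adjusted p = 0.0626) of day 2, without array 2 (adjusted p = 0.0725) or 3 (adjusted p = 0.0624) of day 6, and with median centring (adjusted p = 0.203).

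The effect of the knockdown also differed between days for some members, by the interaction term of the fit. Between day 6 and day 2 it differed for 5 of the 15 tested Hox probes (33.3%, against 23.3% of all tested probes), those of Hoxa7 (101230082), Hoxb13, Hoxc8 (102340008), Hoxc9 and Hoxc13. Between day 6 and day 4 it differed for 4, against 12.5% of all tested probes, and between day 4 and day 2 for 1, Hoxb13, against 4.00%. Hoxb13 had the widest turn, from above control at day 2 to below it at day 6. The Hoxc8 (102340008) and Hoxc9 probes passed the detection filter through knockdown cells at day 6 alone, a group that both comparisons with day 6 use.

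Calls in both directions were found at day 6 in cluster C and among central and posterior genes. Cluster B had 2 calls among 5 tested probes, both lower, and cluster C had 2 higher and 1 lower among 7. Clusters A and D had no call, with only 2 tested probes in A and 1 in D. By position, the anterior group had no call among 2 tested probes. The central group had 1 higher (Hoxc8) and 1 lower (Hoxb7) among 9. The posterior group had 1 higher (Hoxc9) and 2 lower (Hoxb13 and Hoxc13) among 4. With so few tested probes, the absence of a call does not set a cluster or a position apart. Over all 51 members without a filter, the median difference at day 6 was 0.03, against -0.00 over all probes. It was 0.05 for cluster A, 0.07 for B, -0.04 for C and 0.00 for D, and 0.02, 0.01 and 0.03 for anterior, central and posterior probes. Spearman's correlation between paralogue number and the difference was 0.23 at day 2, 0.03 at day 4 and -0.08 at day 6 (n = 51 probes, which share arrays and are mostly at background). It is given as a description. Of the tested probes on the platform, 5% lay below -0.77 and 5% above 0.74 at day 6, so Hoxc8 and Hoxb13 were beyond that range and the other 3 within it.

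**Figure D3:**
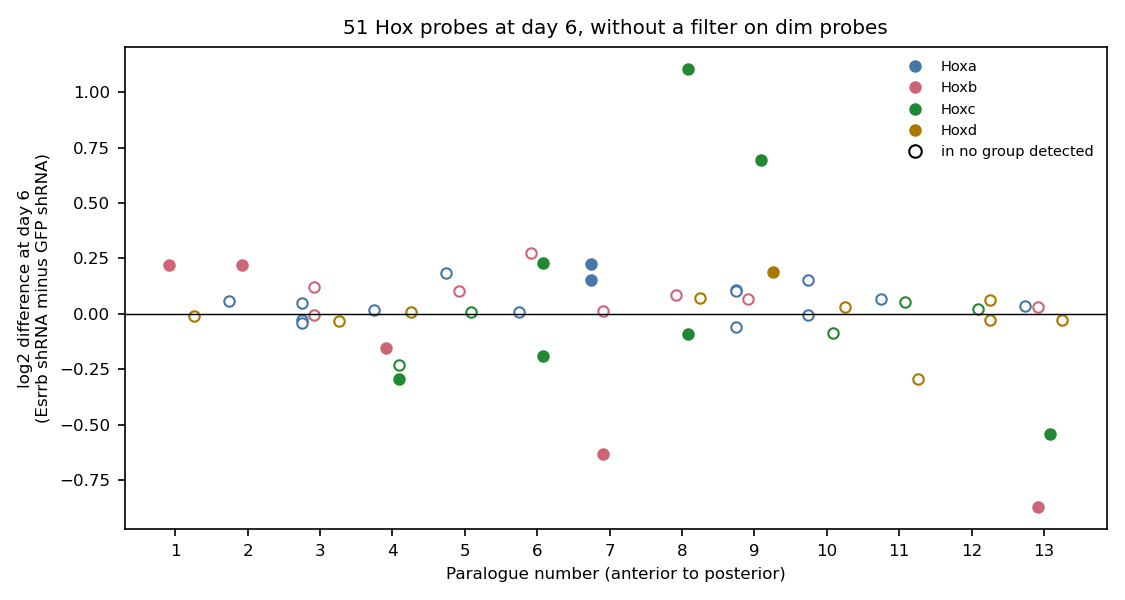
Day 6 difference in log2 level, knockdown minus control, against paralogue number for the 51 Hox probes, coloured by cluster, with open points for probes detected in no group. Most probes lie near 0 at every paralogue number. The called ones lie between paralogues 7 and 13, in both directions, but only 2 anterior probes were tested.

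The 36 probes that no group detected, for 29 genes, had raw intensities of 39.8 to 97 and passed the detection score on 27 of 648 array values. For 26 genes no probe was detected in any group. Without the detection filter their day 6 differences ran from -0.29 to 0.27, and limma called 0 of them (0 at an unadjusted p under 0.05). Hoxd11, a limb and trunk gene, passed on the most arrays, 7 of 18. Hoxa3 (probe 3610632), Hoxa9 (probe 4730040) and Hoxb6 passed on 4 each, Hoxb3 (probe 100840546) and Hoxc4 (probe 1940193) on 2, and Hoxa5, Hoxb5, Hoxd8 and Hoxd12 (probe 104150411) on 1. Hoxd8, whose promoter window holds the Esrrb core above, passed on 1 knockdown array of day 6. That no knockdown difference was called in these probes at day 6 does not show that there was none.

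Partners and regulators of Hox proteins were set beside them at day 6, as counts of tested genes (1 probe each). The median over all tested genes was -0.03, and 41% of all tested genes were called at day 6, so the shares called in the lists below are to be read against that. Of 6 TALE cofactors, the homeodomain proteins that bind DNA with Hox proteins, 2 were higher and 2 lower (median -0.09). Meis1 differed by 0.94 (adjusted p = 0.000118), Pbx2 by -0.54 (adjusted p = 0.000316) and Pbx3 by 0.40 (adjusted p = 0.00651, limma). Of 19 Polycomb genes 5 were higher and 5 lower (median 0.09), among them Phf19 at -1.08, Ezh2, the histone H3K27 methyltransferase, at -0.53, and Phc2 at 0.52. Of 10 Trithorax and H3K27 demethylase genes 2 were higher and 2 lower (median 0.04), with Wdr5 at -0.46, Kdm6b at -0.57 and Ash1l at 0.55. These lists moved in both directions.

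Among upstream signals, 8 of 15 retinoic acid genes were tested, and 2 were higher and 2 lower (median -0.07). Crabp1, a cytoplasmic retinoic acid binding protein, was at -1.43 (adjusted p = 2.5e-08), its relative Crabp2 at 0.58 and the receptor Rxra at -0.45. Rara, Rarb, Cyp26a1, Stra6, Dhrs3, Aldh1a2 and Aldh1a3 passed the filter in no group. Of 13 tested Wnt, Fgf and Gdf genes of the caudal embryo, 9 were higher and 2 lower, with a median of 1.05. Sp5, a Wnt target, was at 4.39, T, the Brachyury factor of the primitive streak, at 3.58, and the ligand Wnt8a was at least 6.27-fold higher from an undetected control. Wnt3a, Gdf11, Nkx1-2 and Msgn1 passed in no group. Of the Cdx and ParaHox genes, Cdx2 was higher (2.41, adjusted p = 8.62e-13) and Cdx1 lower (-0.84, adjusted p = 3.82e-06, limma). Cdx4, Gsx1, Gsx2 and Pdx1 passed in no group.

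Genes next to the clusters were also followed. Of 7 tested neighbours 2 were higher and 3 lower at day 6 (median -0.04). Evx1, the homeobox gene beside the 5' end of cluster A, was detected on all 3 knockdown arrays and on no control array at day 6. It was at least 3.10-fold higher (fitted difference 2.26, adjusted p = 3.48e-12, limma), while no posterior gene of cluster A was detected in any group. Evx1 was detected on 15 arrays of the series, and its level fell with time in both kinds of cells. From day 2 to day 6 it changed by -2.18 in control cells (adjusted p = 7.9e-12, limma). In knockdown cells it changed by -0.64 (adjusted p = 0.000126, limma). From day 2 to day 6 Evx1 thus fell more in control cells and did not rise in knockdown cells. The control fall ends in a group in which Evx1 was undetected, so its size depends on levels not above background. How much of the day 6 difference was already present at day 2 is not given here. Hibadh was at -0.89 and Smug1, beside cluster C, at -0.50.

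Marker lists of other cell types moved as well at day 6, and their part in the Hox differences was not tested. Of 9 tested trophectoderm markers 7 were higher and none lower (median 2.11), with Krt8 at 3.00, Krt18 at 2.68 and Cdx2 at 2.41. Their summed level on the linear scale was 5861 to 5981 on control and 12775 to 14594 on knockdown arrays, while Hand1 and Elf5 passed in no group. Of 5 tested neural markers 3 were higher (Gap43 2.71, Nes 1.63, and Pax6 at least 1.08-fold; median 0.47), with sums of 252 to 275 against 802 to 877. The neural factors Sox1, Zic1 and Neurog2 passed in no group. The 6 tested streak markers had 2 higher (T and Eomes) and 3 lower (Tbx6 -0.60, Pdgfra -0.56 and Gsc -0.48; median -0.19), with sums of 466 to 498 against 789 to 853, and Mixl1, Mesp1, Msgn1 and Hand1 in no group. Extraembryonic endoderm had 2 of 5 higher and 2 lower (Gata6 -1.12, Gata4 -0.52, Dab2 0.52; median 0.26), with sums of 928 to 955 against 914 to 946, and Sox7, Lama1 and Afp in no group.

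Fibroblasts, which express many trunk Hox genes, were covered by 13 markers. Of 6 tested, none was higher and 2 were lower at day 6 (Thy1 -1.46 and Pdgfrb -0.40; median 0.12). Dcn, next by adjusted p (0.149, limma), was not called and was not well above background in either group, and the sums were 561 to 613 in control and 444 to 480 in knockdown cells. Col1a1, Col1a2, Col3a1, Lum, Postn, Twist2 and Fap passed in no group. Embryonic stem cell markers had 3 of 7 lower and none higher (Sox2 -0.68, Zfp42 -0.47 and Nanog -0.42; median -0.27), with sums of 24552 to 25558 against 19620 to 21500.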

How the data were processed

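Total RNA from 18 samples was biotin-labelled and hybridised, 1 array each. Per the file headers, the deposited intensity is the mean over the beads of a probe, summarised in BeadStudio 3.2.6, neither normalized nor corrected for background. The deposited detection score is a fraction from 0 to 1 that rises with signal, and 1 minus it served as detection p. The number of beads, also deposited (unit: other), had a median of 37 per probe (3 to 107). A second deposited table was not used, because its identifiers have no counterpart in the raw table. Genome build and probe sequences are not given in the sources used here. The number of arrays limits the precision.

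In R 4.3.3 with limma 3.58.1, the background was corrected by the normexp model with detection p-values (neqc, offset 16), followed by quantile normalization and log2. Of 46643 probes 320 control and non-mouse probes were left out, and 19464 detected on all 3 arrays of at least 1 group were kept. One model with 6 group means was fitted to all 18 arrays (lmFit, contrasts.fit, eBayes), with Benjamini-Hochberg adjustment over all kept probes per contrast, threshold 0.05, two-sided. It was tested on simulated data. Contrasts were knockdown minus control per day, the differences of these between days, and the time courses per shRNA. Each Hox probe was tested on its own; of a gene in the other lists, the probe with the highest mean stood for it. Where a group was undetected on all 3 arrays, the fold is a bound against the array floor.

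The Hox members and the 13 lists (TALE cofactors, Cdx and ParaHox, cluster neighbours, Polycomb, Trithorax, retinoic acid, caudal signals, and markers of embryonic stem cells, streak, trophectoderm, extraembryonic endoderm, neural cells and fibroblasts) were chosen with earlier results of these data known. Every Hox probe detected in a group is named, and of each list the 3 genes with the lowest adjusted p at day 6, others being chosen after their values were seen. Arrays of a group are biological replicates by their labels. The replicate number is the BeadChip, per the file headers. Deviations from group means of same-numbered arrays correlated at -0.01 to 0.30 (45 pairs, median 0.12), and those of other numbers had a median of -0.06 (90 pairs). The alternatives were no background correction, an offset of 50, median centring, other filters, 1 probe per gene, the compared arrays alone, the replicate block, and each array left out. Some genes are not reported here and are left out of the counts of members and lists; they stayed in the fit.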

Additional observations from a re-analysis of the deposited data

Results flagged for a closer look

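The knockdown effect differed between days for some Hox probes, by the interaction term of the limma fit, adjusted over all tested probes. Between day 6 and day 2 it differed for 5 of the 15 tested (33.3%, against 23.3% of all tested probes). The effect on Hoxb13 went from above 0 to below it (day 6 minus day 2: -1.33, SE 0.16, adjusted p = 6.04e-06), and that on Hoxc13 changed by -0.84 (adjusted p = 0.0032). The effect on Hoxc8 (102340008) was higher at day 6 by 1.10 (adjusted p = 8.36e-05) and that on Hoxc9 by 0.68 (adjusted p = 0.0032). The effect on Hoxa7 (101230082) went from -0.49 at day 2 to 0.22 at day 6, where it was not called (difference of effects 0.72, adjusted p = 0.0221). For Hoxc8 and Hoxc9 the other 3 groups in this comparison were undetected. Both probes passed the detection filter through knockdown cells at day 6 alone. Their p-values, here and between day 6 and day 4, are not independent of that selection. The Hoxa7 difference was lost without knockdown array 2 (0.63) or 3 (0.66) of day 2, without control array 3 (0.55) or knockdown array 1 (0.66) of day 6, and without the detection filter (adjusted p = 0.0628).

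Between day 4 and day 2, Hoxb13 differed by -0.77 (adjusted p = 0.00773, limma). It was 1 of the 15 tested (6.67%, against 4.00% of all tested probes). Between day 6 and day 4 the effects differed for Hoxc8 (0.85, adjusted p = 0.00206), Hoxb1 (0.73, adjusted p = 0.011), Hoxc9 (0.57, adjusted p = 0.0179) and Hoxb13 (-0.56, adjusted p = 0.0247), all by limma. These 4 were 26.7% of the 15 tested, against 12.5% of all tested probes. For Hoxc8 and Hoxc9 the other 3 groups were again undetected, so the sizes of their differences in both comparisons depend on levels not above background. The day pairs share arrays, so these values are not separate evidence.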

How the results depend on the processing

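All 5 calls at day 6 were kept under every alternative in which the probe was tested, leaving out each array included, and no named value reversed. The day 2 count, 2, was 1 without background correction, with an offset of 50, with median centring and without the detection filter, and 0 with the stricter filter and with only the arrays of that day (limma; 1 and 2 at an unadjusted p under 0.05). With only the arrays of that day 4.8% of all tested probes were called, against 10.7% in the main fit. The day 4 count, 4, was 3 without background correction, without the detection filter and with 1 probe per gene. It was 2 with an offset of 50, 1 with median centring and 2 with the stricter filter. Of all probes tested, 22.8%, 8%, 23.4%, 22.6%, 20.5% and 25.7% were called at day 4 in these settings, in that order. The stricter filter (detected on all 18 arrays) tested 7 Hox probes and so gave 2 calls in place of 5 at day 6, 2 in place of 4 in the control time course, 1 in place of 7 in the knockdown time course and 2 in place of 5 for the difference between days 6 and 2. Of all probes tested under that filter, 43.7%, 53.8%, 40.8% and 27.6% were called in these comparisons, in that order. With 1 probe per gene, Hoxc8 is represented by its brighter probe, and 4 probes were called at day 6.

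Leaving out 1 array gave counts of 0 to 2 at day 2, 1 to 4 at day 4, 5 to 7 at day 6, 3 to 5 and 5 to 8 in the control and knockdown time courses, and 4 to 6 for the difference between days 6 and 2. The day 2 count was 0 without control array 1 or knockdown array 2 of day 2 (2 each at an unadjusted p under 0.05). It was 1 without control or knockdown array 3 of day 2, control array 1 or knockdown array 2 of day 4, control array 2 of day 6, or any knockdown array of day 6. The day 4 count was 2 without control array 3 of day 4 and 1 without knockdown array 1 or 2. With the replicate number (BeadChip) as a block the counts were 2, 4, 5, 4, 7 and 6, so that 1 more probe was called for the difference between days 6 and 2 and no other count changed. Median centring moved the median of all probes at day 4 to 0.10 and gave 3057 higher and 940 lower calls there, in place of 2221 and 1983. It gave 5407 and 3030 in place of 4739 and 4532 in the control time course, and 4369 and 1845 in place of 3532 and 3340 in the knockdown one. Detected Hox probes numbered 11 at a score over 0.99 and 19 when 2 of 3 arrays sufficed, against 15. Signal over background limits what 36 of 51 members can show.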

Other observations

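Without the detection filter, 3 Hox probes that no group detected were called in a time course by limma. In that setting 5 of the 51 Hox probes were called in the control time course, against 19.4% of all probes. In the knockdown time course 8 were called, against 13.9% of all probes. Hoxd8 was higher at day 6 than at day 2 in control cells (0.42, adjusted p = 0.0325) and in knockdown cells (0.48, adjusted p = 0.0208). Hoxa5 was higher in knockdown cells (0.41, adjusted p = 0.0277). Hoxd10, which passed the detection score on no array, was lower in knockdown cells (-0.54, adjusted p = 0.00124). Hoxd8 and Hoxa5 each passed the detection score on 1 array, of knockdown cells at day 6, so no fold is given.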
